A study of Homo sapiens with 4 samples.

Results

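The anaphase-promoting complex, also called the cyclosome or APC/C, is the ubiquitin ligase that ends mitosis. The 10 genes described here are ANAPC1, ANAPC2, ANAPC4, ANAPC5, ANAPC7, ANAPC10, ANAPC11, ANAPC13, ANAPC15 and ANAPC16, taken by name from the deposited table, where all 10 were found among 2864 genes with values. The genes at hand run through only part of the alphabet, so the subunits with CDC names, such as CDC27, were not analysed here. RNA was sequenced from 4 cultures of A375, a human melanoma cell line whose genotype is given as wild type, with 1 library per condition. The words wild type name no gene, and the study deals with melanoma that carries a BRAF mutation. A375P was the untreated parental culture. A375R was a strain raised from A375 under rising doses of vemurafenib, an inhibitor of the BRAF kinase, and was kept in the drug. A375+DMSO was A375 held for 48 h in the solvent DMSO at 1‰, and A375+VEM was A375 held for 48 h in 2 μM vemurafenib. With 1 library per condition no difference between conditions could be tested, and A375R stands for 1 strain.

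The complex attaches ubiquitin to cyclins, securin and other mitotic proteins, which are then degraded so that sister chromatids part and the cell leaves mitosis. ANAPC1, ANAPC4 and ANAPC5 form its platform. ANAPC2, a cullin, and ANAPC11, a RING finger protein, form the catalytic module, and ANAPC10 helps to bind substrates at their destruction box. ANAPC7 belongs to the arch of tetratricopeptide repeat proteins, ANAPC13 and ANAPC16 are small proteins bound to that arch, and ANAPC15 promotes turnover of the checkpoint complex that holds the ligase inactive until all chromosomes are attached.

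For each gene the authors deposited a read count and a TPM, which is the count per gene length scaled to a fixed total per library, so TPM levels can be compared between genes. Over the 2864 genes there were 2054277 reads in A375P, 1891215 in A375+DMSO, 1963230 in A375R and 1932550 in A375+VEM. These sums cover part of each library and are not its depth. The subunits together held 12259 reads in A375P, 9462 in A375+DMSO, 9108 in A375R and 9893 in A375+VEM. A gene was called higher or lower when its ratio of (TPM + 0.1) between 2 libraries passed 1.5-fold and either library reached a TPM of 1. Log2 ratios are on this scale, whereas folds of single genes are ratios of the plain TPM. Their 95% intervals come from the exact Clopper-Pearson method applied to the reads, and they cover counting error only and compare the libraries, not the conditions.

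All 10 subunits passed the filter on low values in every comparison. ANAPC5 had the highest mean TPM over the 4 libraries, at 124, and ANAPC10 the lowest, at 8.34. ANAPC13 and ANAPC11 followed ANAPC5, with mean TPM of 80.0 and 77.2. Taken as a sum, the subunits were at a TPM of 520 in A375P, 428 in A375+DMSO, 433 in A375R and 457 in A375+VEM. The sum thus differed little between A375R, A375+DMSO and A375+VEM and was highest in A375P. The single subunits were not steady. ANAPC4 alone stayed within 1.5-fold from its lowest to its highest library, which is 1 of 10, while 19.7% of the 1700 genes whose mean TPM reached 1 and 26% of the 1095 genes whose mean TPM reached 10 did so. The median ratio of highest to lowest TPM was 1.93 for the subunits, 2.16 for the 1700 genes and 1.89 for the 1095 genes. A375P was the highest library for 6 subunits, beside 27.5% of the 1700 genes and 30.8% of the 1095. A375+VEM was the lowest for 6, beside 30.8% and 33.6%, and the highest for 3, beside 39% and 36.5%.

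**Figure D1:**
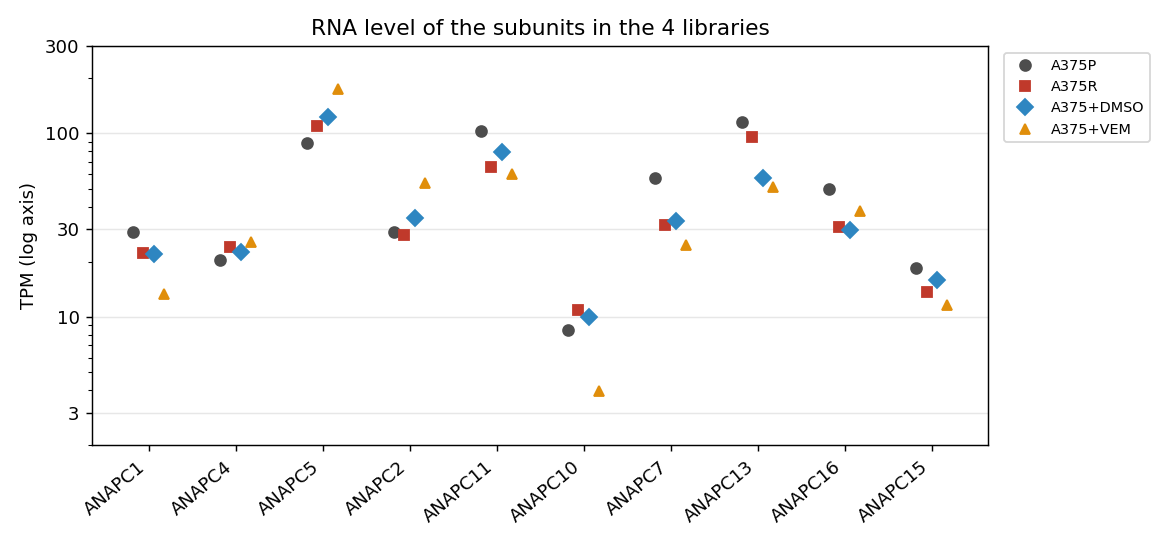
TPM of each subunit (log axis) in A375P, A375R, A375+DMSO and A375+VEM, 1 library each, with 1 point per library and no error bars. The A375+VEM points of ANAPC2, ANAPC4 and ANAPC5 lie above the other libraries, while those of ANAPC1, ANAPC7, ANAPC10, ANAPC11, ANAPC13 and ANAPC15 lie below them.

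The acute pair asks how 48 h of vemurafenib changes A375 cells. Of the 10 subunits, A375+VEM had 1 higher and 2 lower than A375+DMSO. Of 1784 genes tested, 46.2% passed 1.5-fold, 26.5% higher and 19.7% lower. With only 10 subunits, whether their share of 3 differs from that of all genes was not tested. The subunits' median log2 ratio was -0.27, beside 0.11 over all genes tested, and ranged from -1.31 to 0.62. Without ANAPC1 the median was -0.15. With median-of-ratios size factors, 401 of all genes were higher and 398 lower, where the TPM gave 473 and 352. By their intervals, the counting error was smaller than the difference for all 10 subunits, 6 of them lower and 4 higher, as it was for 74.7% of the 1784 genes and for 83.2% of the 1097 genes whose mean TPM in the pair reached 10. The size of such differences between 2 cultures of the same condition is not known from these data.

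Within the platform, the subunits went in different directions. ANAPC1, at chr2:112525214-112641741 (hg19, minus strand), had 1931 reads in A375P, 1370 in A375+DMSO, 1329 in A375R and 818 in A375+VEM. Its TPM in A375+VEM was 0.601 times that in A375+DMSO (95% interval 0.551 to 0.656), and A375+VEM was the lowest library while A375R and A375+DMSO were alike, at 22.2 and 22.1. ANAPC5, at chr12:121746048-121792012 (minus strand), had 2081 reads in A375P, 2685 in A375+DMSO, 2314 in A375R and 3783 in A375+VEM. It was thus highest in A375+VEM, 1.42-fold above A375+DMSO (95% interval 1.35 to 1.49), which is short of the threshold. ANAPC4, at chr4:25378848-25420120 (plus strand), had 467 reads in A375P, 483 in A375+DMSO, 497 in A375R and 544 in A375+VEM. Its TPM lay between 20.4 and 25.6, and the 95% interval of its acute ratio, 1.00 to 1.28, barely left out equality.

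The catalytic module was split as well. ANAPC2, the cullin, at chr9:140069236-140083057 (minus strand), had 671 reads in A375P, 748 in A375+DMSO, 588 in A375R and 1146 in A375+VEM. In A375+VEM it exceeded A375+DMSO by 1.54-fold (95% interval 1.41 to 1.69), the 1 subunit above the threshold, and the interval reaches below it. After scaling to a median ratio of 1 or by median-of-ratios size factors, ANAPC2 was short of 1.5-fold and the calls were 0 higher and 2 lower. ANAPC11, the RING subunit that recruits the ubiquitin-loaded enzyme, at chr17:79848666-79858409 (plus strand), had 1426 reads in A375P, 1028 in A375+DMSO, 819 in A375R and 775 in A375+VEM. Its ratio in the acute pair was 0.759 (95% interval 0.691 to 0.834), so it lay below in the library where ANAPC2 lay above.

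ANAPC10, the substrate receptor subunit at chr4:145915727-146019693 (minus strand), showed the largest difference of the 10 in the acute pair. It had 153 reads in A375P, 167 in A375+DMSO, 176 in A375R and 66 in A375+VEM, which makes it also the subunit with the fewest reads. Its TPM was 8.54, 9.99, 10.9 and 3.97 in that order, and A375+VEM stood apart below the other libraries. The acute ratio was therefore 0.398 (95% interval 0.295 to 0.532).

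The arch and the small subunits stayed within 1.5-fold in this pair. ANAPC7, at chr12:110810705-110841535 (minus strand), had 1784 reads in A375P, 970 in A375+DMSO, 893 in A375R and 711 in A375+VEM, and its acute ratio was 0.738 (95% interval 0.669 to 0.814). ANAPC13, at chr3:134196546-134204865 (minus strand), had 1824 reads in A375P, 839 in A375+DMSO, 1370 in A375R and 752 in A375+VEM, with a ratio of 0.903 in the acute pair (95% interval 0.817 to 0.997). Both were highest in A375P, and ANAPC13 was high in A375P and A375R and low in both 48 h cultures. ANAPC16, at chr10:73975758-73995618 (plus strand), had 1523 reads in A375P, 855 in A375+DMSO, 857 in A375R and 1066 in A375+VEM, and was 1.26-fold higher in A375+VEM (95% interval 1.15 to 1.38). ANAPC15, at chr11:71817422-71823826 (minus strand), had 399 reads in A375P, 317 in A375+DMSO, 265 in A375R and 232 in A375+VEM, with a ratio of 0.737 (95% interval 0.619 to 0.876). ANAPC15 was thus lowest and ANAPC16 intermediate in A375+VEM.

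**Figure D2:**
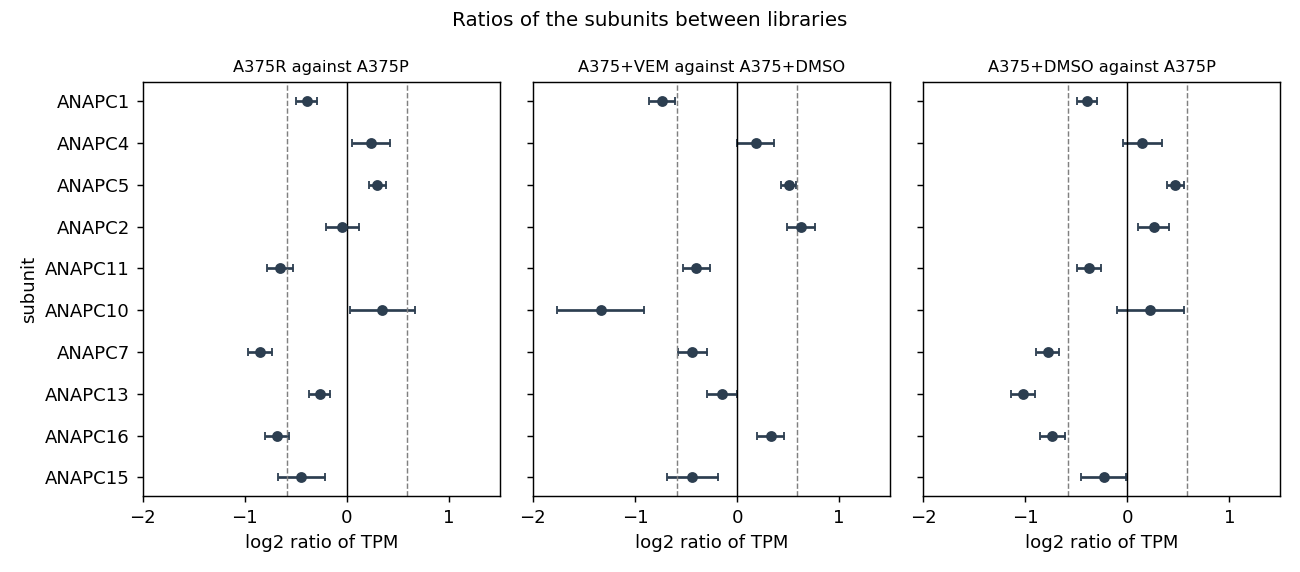
Log2 ratio of TPM of each subunit in A375R against A375P, A375+VEM against A375+DMSO and A375+DMSO against A375P. Points are single library pairs, bars are 95% intervals of counting error, the solid line is equality and dashed lines mark 1.5-fold. ANAPC10 lies farthest below in the acute pair, and ANAPC7 and ANAPC16 are below 1.5-fold against A375P in both outer panels.

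Genes that act in mitosis were set beside the subunits. Of 11 such genes in the table, A375+VEM had 10 lower and 0 higher, with a median log2 ratio of -3.79. Their summed TPM was 470 in A375P, 650 in A375+DMSO, 648 in A375R and 111 in A375+VEM, so in A375+VEM it was 0.171 times that in A375+DMSO. The summed TPM of the subunits was 1.07 times that in A375+DMSO. This sum leans on ANAPC5, the most abundant, at a TPM of 123 in A375+DMSO and 174 in A375+VEM. By single subunits, 6 had a ratio below 1 and 4 above, with a median log2 ratio of -0.27. No subunit came as low as the median of the mitotic genes. In bulk RNA, fewer cells of a kind and less RNA per cell cannot be told apart.

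The mitotic genes include proteins that the complex degrades and proteins that hold it inactive. Its substrates ANLN, ASPM, AURKA, AURKB and BUB1 were all lower in A375+VEM, with a median log2 ratio of -4.85. AURKB, the kinase of the chromosomal passenger complex, had 871 reads in A375P, 1426 in A375+DMSO, 1280 in A375R and 37 in A375+VEM. Its level in A375+VEM was 0.0261 times that in A375+DMSO (95% interval 0.0183 to 0.0362). The spindle checkpoint gene BUB1B, whose product BubR1 binds and inhibits the complex, had 1146 reads in A375P, 1283 in A375+DMSO, 1271 in A375R and 20 in A375+VEM. BUB3, its partner in the checkpoint, had 3232, 2572, 2865 and 1727 reads in the same order and a log2 ratio of -0.56 in the acute pair, the 1 mitotic gene within 1.5-fold. Under both scalings BUB3 passed it, and all 11 mitotic genes were lower. The subunit with the lowest ratio, ANAPC10 at -1.31, lay below BUB3 and below BORA, an activator of AURKA, at -1.25. The ranges of both lists therefore overlapped at ANAPC10 and ANAPC1, the latter at -0.73, while the other 8 subunits lay above every mitotic gene. All 9 replication and repair genes in the table, among them BRCA1 and BLM, were lower as well, with a median of -3.10.

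Other complexes served as a comparison. Of 9 subunits of ARP2/3, which nucleates branched actin filaments, 1 was higher in A375+VEM and 0 lower, with a median log2 ratio of 0.17. That one was ARPC1B, with 4889 reads in A375+DMSO and 10444 in A375+VEM. Of 18 tested genes with ATP5 symbols, most of them subunits of mitochondrial ATP synthase, 0 passed 1.5-fold, and their log2 ratios ran from -0.53 to 0.52 around a median of -0.013. Under both scalings 1 of them, ATP5B, was lower. The subunits of the anaphase-promoting complex had a median absolute log2 ratio of 0.44, those of ARP2/3 0.34, the ATP5 genes 0.13 and all genes tested 0.52. The subunits were thus more spread in this pair than the ATP5 genes and close to all genes.

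**Figure D3:**
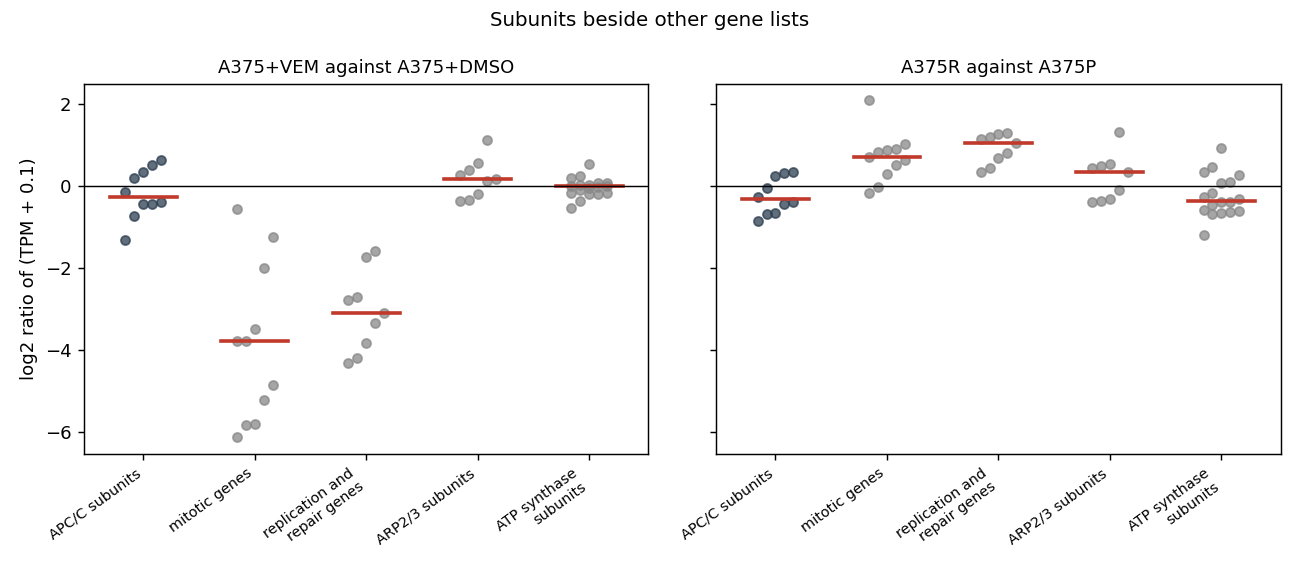
Log2 ratio of (TPM + 0.1) of each tested gene in 5 lists, for A375+VEM against A375+DMSO and for A375R against A375P, 1 library each. Points are genes and red lines are medians. In the acute pair the medians of the mitotic and the replication and repair genes lie at -3.79 and -3.10, and that of the subunits at -0.27.

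The resistant strain was compared with the parental culture to find differences that persist under the drug. In A375R, 0 subunits were higher and 3 were lower than in A375P, among 1689 genes of which 44.3% passed 1.5-fold, 26.8% higher and 17.5% lower. The median log2 ratio of the subunits was -0.33, beside 0.10 over all genes tested. The ATP5 genes had a like median of -0.36 in this pair, with 1 of 18 higher and 6 lower, and ARP2/3 had 0.34, with 1 of 9 higher and 0 lower. With size factors, 403 of all genes were higher and 340 lower, in place of 452 and 296. The 3 lower subunits were ANAPC7 at a ratio of 0.554 (95% interval 0.511 to 0.601), ANAPC16 at 0.623 (95% interval 0.572 to 0.678) and ANAPC11 at 0.636 (95% interval 0.583 to 0.693). ANAPC2 had a ratio of 0.970 and its interval of 0.867 to 1.09 spans equality, so a difference could not be seen at this depth. Of the mitotic genes, 7 of 11 were higher and 0 lower in this pair, with a median of 0.70. Under both scalings 6 of 11 were higher, without BUB1. Against A375+DMSO, 0 of the 11 were higher or lower in A375R, with a median of -0.055, and in A375+DMSO itself 8 of 11 were higher than in A375P (6 of 11 under both scalings, without ANLN and ARHGAP11A).

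Subunits also differed between the cultures without vemurafenib. In A375+DMSO, 0 subunits were higher and 3 were lower than in A375P, among 1720 genes of which 45.7% passed 1.5-fold, 26.8% higher and 18.9% lower. With size factors, 409 of all genes were higher and 391 lower, in place of 461 and 325. The lower subunits were ANAPC13 at a ratio of 0.493 (95% interval 0.454 to 0.535), ANAPC7 at 0.583 (95% interval 0.538 to 0.630) and ANAPC16 at 0.602 (95% interval 0.553 to 0.655). ANAPC7 and ANAPC16 were therefore lower than in A375P both in the resistant strain and in the solvent control. Both comparisons share A375P. With A375+DMSO as the control, 1 subunit was higher in A375R and 0 were lower, among 1702 genes of which 20.5% passed 1.5-fold, 10.5% higher and 9.99% lower. That subunit was ANAPC13, at a ratio of 1.69 (95% interval 1.55 to 1.84), and the ratios of ANAPC7 and ANAPC16 were 0.951 and 1.04. ANAPC7, ANAPC16 and ANAPC11 were thus called in A375R against A375P and not against A375+DMSO.

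Counting from A375P, A375+VEM differed in more subunits. There were 2 higher and 6 lower among the 10, while 62.1% of 1782 genes passed 1.5-fold, 36.9% higher and 25.3% lower. With size factors, 552 of all genes were higher and 560 lower, in place of 657 and 450, and 7 subunits were lower, ANAPC16 among them. ANAPC5 was 1.96-fold higher (95% interval 1.86 to 2.07) and ANAPC2 1.84-fold higher (95% interval 1.67 to 2.03). The lower ones were ANAPC1, ANAPC7, ANAPC10, ANAPC11, ANAPC13 and ANAPC15, at ratios from 0.430 for ANAPC7 to 0.628 for ANAPC15. ANAPC1 and ANAPC10 were lower in A375+VEM against either control, at 0.457 and 0.466 against A375P. Against A375R, A375+VEM was lower in 3 subunits, ANAPC1, ANAPC10 and ANAPC13, and higher in 2, ANAPC2 and ANAPC5, while 54.7% of 1773 genes passed 1.5-fold, 30.8% higher and 23.9% lower. Under both scalings ANAPC5 was short of 1.5-fold there, and with size factors 467 of all genes were higher and 485 lower, in place of 546 and 423.

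The mixture of subunit RNAs differed between libraries more than their sum did. ANAPC5 made up 17.1% of the summed TPM of the 10 subunits in A375P, 28.7% in A375+DMSO, 25.3% in A375R and 38.2% in A375+VEM. ANAPC13 made up 22.2% in A375P, 13.3% in A375+DMSO, 22.2% in A375R and 11.3% in A375+VEM. ANAPC5 was thus the largest part in every library but A375P, where ANAPC13 was.

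A ratio of subunits within a library does not depend on the scaling between libraries. For the catalytic pair, the TPM of ANAPC2 was 0.281 times that of ANAPC11 in A375P (95% interval 0.256 to 0.308), 0.435 times in A375+DMSO (0.395 to 0.478), 0.429 times in A375R (0.385 to 0.477) and 0.883 times in A375+VEM (0.806 to 0.969). On the platform, the TPM of ANAPC5 was 3.05 times that of ANAPC1 in A375P (95% interval 2.87 to 3.25), 5.55 times in A375+DMSO (5.20 to 5.93), 4.93 times in A375R (4.61 to 5.28) and 13.1 times in A375+VEM (12.1 to 14.1). Both ratios were lowest in A375P and highest in A375+VEM. In both pairs the intervals of A375R and A375+DMSO overlapped. Both pairs were chosen after their values were seen, and the complex holds its subunits as proteins, whose amounts were not analysed here.

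**Figure D4:**
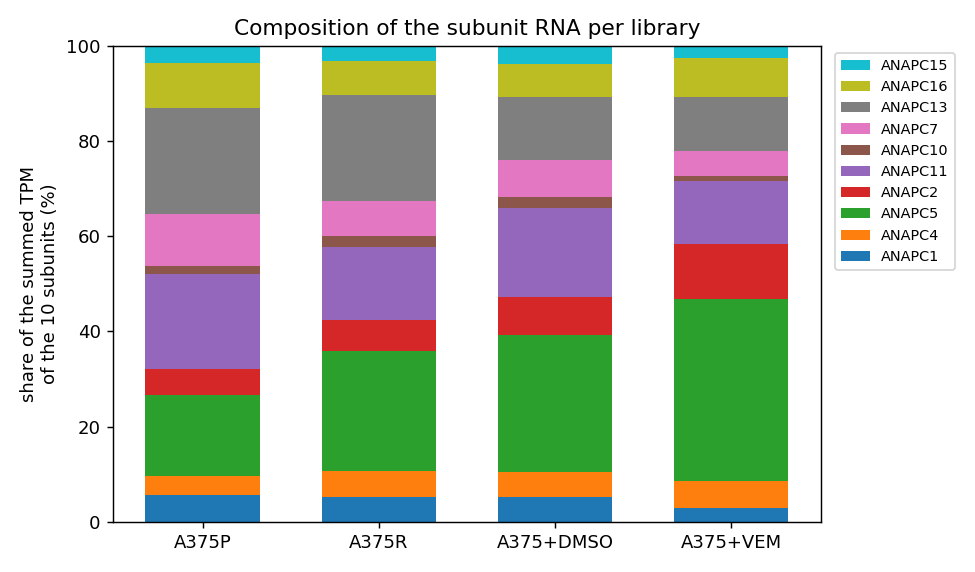
Share (%) of each subunit in the summed TPM of the 10 subunits, stacked for each of the 4 libraries. The ANAPC5 part is 17.1% in A375P and 38.2% in A375+VEM, while the ANAPC13 part is 22.2% in A375P and 11.3% in A375+VEM.

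The promoters of many genes that peak in mitosis carry the cell cycle genes homology region, a short element bound by the DREAM and MuvB complexes, often near a CCAAT box. Windows from 250 bases before to 50 bases after the annotated starts were taken from RefSeq (GRCh38.p14), and both strands were searched for TTTGAA. All 10 subunits matched, with 21 windows, and 7 of the 11 mitotic genes, with 8 windows. The stretches that hold the letters are shown to set subunits beside mitotic genes, each read along the gene's own strand with each match in capitals. TTCAAA is the match on the opposite strand.
ANAPC1: tggacgcgtccaTTTGAAcgtctcg
ANAPC7: ctctcagactcaTTCAAAttgaccgagtag
ANAPC10: tattgcacctatTTTGAAtagcatatataa
ANLN: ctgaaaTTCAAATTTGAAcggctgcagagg
ASPM: cggatgcaatcaTTCAAAtgaagcgccgcc
BORA: aggctgcgttgaTTTGAAtttggagccacg
BUB1B: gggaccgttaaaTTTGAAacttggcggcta
These lie at chr2:111884144-111884168, chr12:110403927-110403956, chr4:145097454-145097483, chr7:36389830-36389859, chr1:197146765-197146794, chr13:72727734-72727763 and chr15:40161034-40161063. The letters begin 38 bases after the annotated start in ANAPC1, and 236, 89, 20, 113, 177 and 23 bases before it in ANAPC7, ANAPC10, ANLN, ASPM, BORA and BUB1B. ANLN holds a second match, on the opposite strand, 26 bases before its start. Of the subunits, 3 held TTTGAA in any window, which is 3 of 21 windows, beside 15.2% of all 35116 windows. Of the mitotic genes it was 4 of 8 windows, in ANLN, ASPM, BORA and BUB1B. The share among the subunits was near that of all promoters. In A375+VEM against A375+DMSO, the 3 subunits that hold it had log2 ratios of -0.73, -0.44 and -1.31, and ANLN, ASPM, BORA and BUB1B had -3.47, -5.82, -1.25 and -5.80. BORA thus lay slightly above ANAPC10. The subunits without TTTGAA ran from -0.44 in ANAPC15 to 0.62 in ANAPC2. AURKB and BUB1, which were searched and did not hold TTTGAA, had -5.21 and -4.85. BUB1 does hold TTCGAA, the other form of the element that was searched. Whether the letters go with the ratios was not tested.

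Other letters were searched as well. TTCGAA, the other form of the same element, was in 0 subunit windows and in 2 of the 8 mitotic windows, in BORA and BUB1, beside 1.45% of all windows. CCAAT was in 6 of the 21 subunit windows, in ANAPC5, ANAPC11 and ANAPC15, and in 5 of the 8 mitotic windows, beside 34.6% of all windows. The ETS letters CCGGAAGT were in 3 of the 21 subunit windows, in ANAPC4 and ANAPC11, beside 4.14% of all windows. Windows of the same gene can overlap, and each was counted. The ANAPC11 windows with CCGGAAGT hold the same site, and CCAAT sites of ANAPC11, ANAPC15 and AURKB were likewise counted in more than a single window. Neither the subunits nor the mitotic genes held the palindromic NRF1 motif searched or the E2F letters TTTGGCGC and TTTCGCGC, which were in 1.24%, 0.652% and 0.515% of all windows.

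Some subunits share exon sequence with neighbours, and whether reads were counted by strand is not given in the sources used here. In the basic gene set of GENCODE release 29, ANAPC10, ANAPC11, ANAPC13, ANAPC15 and ANAPC16 overlap exons of genes on the opposite strand, while ANAPC1, ANAPC2, ANAPC4 and ANAPC5 overlap none. For ANAPC10, 14.3% of exon bases overlap ABCE1, for ANAPC13 14.4% overlap CEP63 and for ANAPC15 22.4% overlap LRTOMT. ABCE1, a ribosome recycling factor, had 3494 reads in A375P, 1679 in A375+DMSO, 2267 in A375R and 754 in A375+VEM. It was lowest in A375+VEM, as ANAPC10 was, while A375P was its highest library and not that of ANAPC10. ALYREF, an mRNA export factor that overlaps 1.24% of the exon bases of ANAPC11, had 1835 reads in A375P, 1107 in A375+DMSO, 890 in A375R and 506 in A375+VEM. Its order over the 4 libraries was that of ANAPC11. The part of ABCE1 and ALYREF in the reads of these subunits was not tested. On their own strand, ANAPC7, ANAPC10 and ANAPC11 share 15.8%, 24% and 9.87% of their exon bases with another gene. ANAPC1P1, the pseudogene of ANAPC1 in the table, had 2 reads over the 4 libraries.

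The genes whose pattern over the 4 libraries lay closest to the mean pattern of the subunits were C19orf54, AHSA1, CACUL1, BAG5 and ARMC8. Likeness was the largest deviation over the 4 libraries between centred log2(TPM + 0.1) values, which ran from 0.050 to 0.076 in these 5 among 1045 candidates whose mean TPM reached 10. AHSA1, a co-chaperone of HSP90, had a TPM of 152 in A375P, 127 in A375+DMSO, 120 in A375R and 109 in A375+VEM. The mean pattern of the subunits had the same order at its ends, highest in A375P at 0.23 and lowest in A375+VEM at -0.20, with A375R and A375+DMSO at -0.016 and -0.015.

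The label of a melanoma line could be checked against few markers, since MLANA, PMEL and TYR were not analysed here. APOE, which melanoma cells express, had a TPM from 11.3 to 26.3, while BIRC7 and ABCB5 had at most 18 and 6 reads in any library. ALB, the liver gene for albumin, was at a TPM of 64.5 in A375P, 47.1 in A375+DMSO, 51.5 in A375R and 46.4 in A375+VEM, and APOA1 at 7.34 to 10.0, while AFP, the fetal albumin-like gene, was at 0.317 to 1.47. ACTA2, the smooth muscle actin, was at 92.2 in A375P, 28.3 in A375+DMSO, 35.0 in A375R and 40.1 in A375+VEM. ACTN2, a sarcomeric actinin, was at 0.640 to 4.02. The markers of macrophages, B cells and heart muscle AIF1, BLK, BANK1 and ACTC1 were below a TPM of 1 in all libraries. The 9 markers of other cell types summed to a TPM of 172 in A375P, 87.2 in A375+DMSO, 99.0 in A375R and 96.0 in A375+VEM, and ACTA2 in A375P and ALB elsewhere was the most abundant. ALB and ACTA2 were highest in A375P, as were 6 of the subunits, and their part in the difference was not tested.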

How the data were processed

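Samples were grouped by their labels, with 1 RNA library for each of the 4 conditions. The authors deposited 1 table with whole-number read counts and TPM per gene and library. Within a library, the TPM equalled the count over gene length times a constant. The submitters' processing notes name hg19, HISAT, HISAT2, TopHat2 and Bowtie2, without roles. The counting program is not given in the sources used here. The table holds 2864 genes with values, and 1 incomplete row was left out.

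Libraries were compared by ratios of (TPM + 0.1). edgeR or any other test across replicates could not be applied with 1 library per condition. The calls past 1.5-fold and the counting intervals were tested on simulated counts of a single pair, without variation between cultures. The other steps were not tested in this way. The members and gene lists were chosen with earlier results of these data known. Named genes were the subunits, the list members and the 5 genes closest in pattern. Genes that overlap exons of subunits, the pseudogene ANAPC1P1 and markers of cell types were named as well. Of the list of 10 replication and repair genes 9 were in the table. The alternatives were other pseudocounts, filters, scalings, thresholds and the other control. Computation used scipy 1.17.1, numpy 2.4.6 and pandas 2.3.3 under Python 3.11.15, and matplotlib 3.10.9.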

Additional observations from a re-analysis of the deposited data

How the results depend on the processing

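No paired analysis was possible because each condition had 1 library. The number of subunits past the threshold stayed at 3 in each of the pairs A375R against A375P and A375+DMSO against A375P under the pseudocounts of 1 and 0.01, no filter, a TPM of at least 5 and both scalings, and in A375+VEM against A375+DMSO it was 2 under both scalings. At 2-fold the numbers were 0, 1 and 1 for A375R against A375P, A375+VEM against A375+DMSO and A375+DMSO against A375P. The share of all genes past 2-fold is not given here. At a lower threshold of 0.32 on the log2 scale the numbers were 6, 8 and 6. All genes tested had median absolute log2 ratios of 0.51, 0.52 and 0.53 in these pairs, so most of them passed the lower threshold too. With the other control library, 1 subunit passed 1.5-fold for A375R and 8 for A375+VEM, beside 20.5% and 62.1% of all genes tested. The cause was not tested.

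Median log2 ratios were recomputed with the other control. For A375R against A375+DMSO they were -0.035 for the subunits, 0.28 for the replication and repair genes, 0.11 for ARP2/3 and -0.14 for the ATP5 genes. That of the mitotic genes changed sign to -0.055, which is near equality. For A375+VEM against A375P they were -0.72 for the subunits, -3.12 for the mitotic genes, -2.49 for the replication and repair genes, 0.45 for ARP2/3 and -0.31 for the ATP5 genes. Scaling to a median ratio of 1, which shifts log2 ratios by the median of all genes (0.10 in A375R against A375P, 0.11 in the acute pair), gave 0.24 and -0.46 for ARP2/3 and the ATP5 genes in A375R against A375P, 0.062 and -0.12 in the acute pair, and -0.016 for ARP2/3 in A375+DMSO against A375P. Size factors gave 0.26 and -0.44, 0.062 and -0.12, and -0.017. A pseudocount of 1 gave -2.03 for the replication and repair genes in the acute pair. Without ANAPC1 the median of the subunits was -0.27 in A375R against A375P, -0.15 in the acute pair and -0.23 in A375+DMSO against A375P.

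With A375+DMSO as the control of A375R, some genes called against A375P changed sign and were no longer called. Their log2 ratios were 0.050 for ANAPC16, -0.38 for ARHGEF39, -0.10 for ASPM, -0.11 for AURKB and -0.055 for BUB1, all within 1.5-fold. Of 200 values of single subunits under alternatives, 20 lay outside their counting interval, 15 of them with the other control. The rest were values of ANAPC5 under the scalings. The 200 include the values under no filter and under a TPM of at least 5. Those could not change, since every subunit passes both, so the share outside does not measure how steady the results are. ANAPC10, with 66 reads in A375+VEM, had the widest interval.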
